A study of Danio rerio with 18 samples.

Results

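Transcript levels of 6 neural crest transcription factor genes, 4 of the Tfap2 family and both pax3 copies, were followed across 18 zebrafish tumours. They are 6 of the 27057 genes counted. The genes tfap2a (ENSDARG00000059279) and pax3a (ENSDARG00000010192) were taken by identifier, and tfap2b (ENSDARG00000012667), tfap2c (ENSDARG00000040606) and tfap2e (ENSDARG00000008861) by name. The other gene named PAX3 (ENSDARG00000028348) was taken as pax3b. The crest gene foxd3, the seventh named by the rule, was not analysed here. The tumours, labelled as melanoma, grew in fish of the Tu line in a p53-/- background that both groups share. In 12 of them, called sox10 tumours, the fish had been injected as a 1-cell embryo with a plasmid for BRAFV600E, an activated BRAF kinase, under the sox10 promoter, which is active in crest cells and glia. In the other 6, called mitfa tumours, the injected plasmid carried BRAFV600E under the mitfa promoter, which is active in the pigment cell lineage. The injected fish were the F0 generation and therefore mosaics, they were raised to adulthood, and whole tumours were extracted. The labels do not say how many fish the tumours came from, so the p-values rest on a spread between tumours that may in part be technical.

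Tfap2 proteins bind DNA as dimers and are among the earliest factors of the neural crest, the embryonic cell population that gives rise to pigment cells and peripheral glia. In zebrafish, tfap2a and tfap2c act together in starting the crest, tfap2a and tfap2e overlap in black pigment cells (melanophores), and tfap2b marks stem cells of adult pigment cells. Pax3 acts at the border of the neural plate and in the crest, and in mammals it switches on MITF, the master factor of melanocytes, together with SOX10. These factors are also used outside the crest: tfap2a and tfap2c in epidermis, Tfap2a and Tfap2b in retinal neurons of mice, and Pax3 in muscle precursors.

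Between 14973777 and 21191902 reads per tumour were assigned to genes. Sox10 tumours 9 and 10 were the most alike of all pairs, with a median squared difference of 2.42 times sampling noise against 16.5 times for the next pair, and the main results on tfap2b and tfap2c are also given with them joined. A list of melanophore genes, which should mark a melanoma, and other targets of these factors was summed. It came to between 116 and 545 CPM in sox10 tumours and between 5366 and 21846 CPM in mitfa tumours. The sums in sox10 tumours include inka1a and MET, listed as targets and not as pigment genes, at means of 137 and 13.2 CPM. CPM are counts per 1000000 reads of a library, with library sizes adjusted by edgeR's TMM scaling factors. Epidermal markers summed to between 311 and 3950 CPM in sox10 tumours and between 1898 and 8313.5 CPM in mitfa tumours. The marker icn alone had 138 to 1587 CPM in sox10 tumours and 1108 to 3083 CPM in mitfa tumours. In whole tumours, fewer cells of a type and less RNA per cell cannot be told apart.

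The 3 genes tfap2a, tfap2c and tfap2e were abundant in mitfa tumours and scarce in sox10 tumours. Their relative tfap2b had the opposite pattern and differed widely among sox10 tumours, while pax3a was well expressed in all 18 tumours. Of the 6 genes, 5 passed the filter on low counts. The test was edgeR's quasi-likelihood F test, with 0.05 as the limit for the adjusted p. In sox10 tumours 1 of the 5 was higher and 4 were lower, while 43.9% of all 18731 tested genes were called, 21.5% as higher and 22.4% as lower. In 3 of the 5 every sox10 tumour lay below every mitfa tumour, as in 4.91% of all genes, and in 0 of the 5 every one lay above, as in 6.85%. The same 3 genes were lower by at least 16-fold, as were 1.33% of all genes. The median log2 fold change, sox10 minus mitfa tumours, was -5.94 over the 5 genes and -0.033 over all genes tested.

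**Figure D1:**
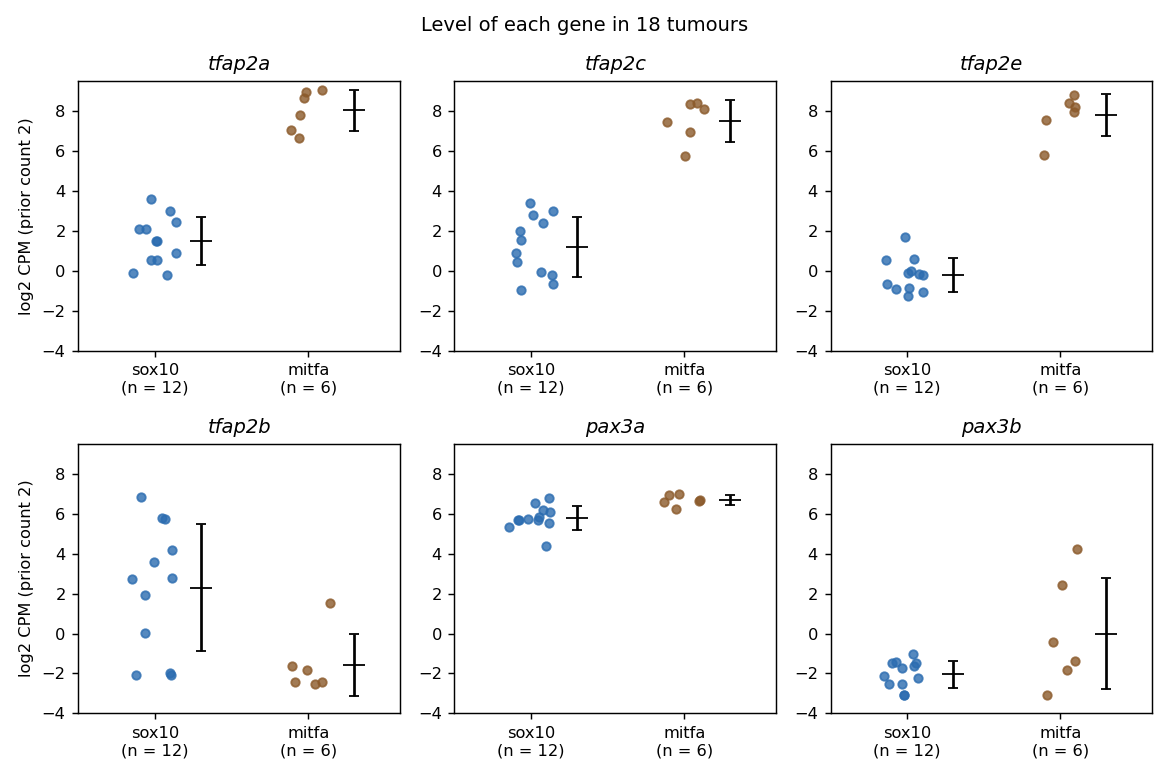
Level of each gene (log2 CPM with a prior count of 2) in 12 sox10 tumours and 6 mitfa tumours. Points are tumours, and bars show the mean ± SD. The groups are separate for tfap2a, tfap2c and tfap2e, while pax3a is lower in sox10 tumours by a smaller step and with overlap. In sox10 tumours tfap2b is spread over the widest range, and pax3b stands out in 2 mitfa tumours.

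The gene with the greatest fall was tfap2e, a regulator of melanophore development in zebrafish. Its lowest, median and highest levels were 0.302, 0.770 and 3.07 CPM in sox10 tumours, against 55.9, 271 and 441 CPM in mitfa tumours. All 12 sox10 tumours lay below all 6 mitfa tumours. The highest sox10 tumour was tumour 3, at 3.07 CPM, and the lowest mitfa tumour was tumour 1, at 55.9 CPM. The means were 0.921 ± 0.765 CPM (SD, n = 12) in sox10 tumours and 260 ± 132 CPM (SD, n = 6) in mitfa tumours. The log2 fold change was -8.13 (SE 0.50, adjusted p = 3.74e-10 by edgeR), the 18th lowest of the 18731 genes tested. All sox10 tumours together held 188 reads of tfap2e, and the 6 mitfa tumours held 26786.

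The crest inducer tfap2a had a lowest, median and highest level of 0.745, 2.68 and 11.97 CPM in sox10 tumours, against 99.6, 318 and 529 CPM in mitfa tumours. The groups did not overlap. Sox10 tumour 6 was the highest of its group, followed by tumour 7 at 7.79 CPM. Among mitfa tumours, tumours 2, 4 and 6 stood at 409 to 529 CPM and tumours 1, 3 and 5 at 99.6 to 226 CPM. Means were 3.72 ± 3.33 CPM (SD, n = 12) in sox10 tumours and 315 ± 186 CPM (SD, n = 6) in mitfa tumours, a log2 fold change of -6.40 (SE 0.57, adjusted p = 5.53e-08 by edgeR).

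Its partner in crest induction, tfap2c, ranged from 0.399 to 10.3 CPM in sox10 tumours with a median of 2.26 CPM, and from 52.9 to 339 CPM in mitfa tumours with a median of 227 CPM. The groups were again separate. Sox10 tumours 5 and 6 were the highest of their group, at 10.3 and 7.80 CPM, and tumours 4 and 12 the lowest, at 0.399 and 0.518 CPM. Means were 3.51 ± 3.30 CPM (SD, n = 12) in sox10 tumours and 216 ± 117 CPM (SD, n = 6) in mitfa tumours, and the log2 fold change was -5.94 (SE 0.64, adjusted p = 5.69e-07 by edgeR). The order of the mitfa tumours differed between the genes: tumour 3 had the least tfap2a, at 99.6 CPM, but 329 CPM of tfap2c and 337 CPM of tfap2e, the second highest level of each.

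The gene tfap2b behaved differently from its relatives. Its lowest, median and highest levels were 0.120, 6.60 and 112 CPM in sox10 tumours, against 0.0547, 0.119 and 2.72 CPM in mitfa tumours. Sox10 tumours 1, 9 and 10 stood at 112, 55.0 and 52.7 CPM, while tumours 2, 3 and 11 had only 2 reads each, as few as most mitfa tumours. In mitfa tumours the gene had 1 to 4 reads per tumour except in tumour 4, which had 47. The groups thus overlapped, with 8 of the 12 sox10 tumours above every mitfa tumour, or 7 of 11 with tumours 9 and 10 joined. Means were 22.3 ± 34.4 CPM (SD, n = 12) in sox10 tumours and 0.547 ± 1.07 CPM (SD, n = 6) in mitfa tumours, a log2 fold change of 5.33 (SE 1.55, adjusted p = 0.00935 by edgeR). With tumours 9 and 10 joined the value was 5.13 (edgeR adjusted p = 0.0137). It was 7.51 without mitfa tumour 4 (edgeR adjusted p = 0.00301) and 4.67 without sox10 tumour 1 (edgeR adjusted p = 0.0146). Limma with sample quality weights gave 4.43 and made no call (limma adjusted p = 0.235), nor did edgeR with the neuron score, described with the tissue markers, as a covariate (6.72, adjusted p = 0.108). That score ran from 1.80 to 5.57 in sox10 tumours and from -1.01 to 0.41 in mitfa tumours. Without overlap, a fit with it as a covariate can tell score and group apart only by extending the trend within groups beyond the scores seen.

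Among sox10 tumours the spread of tfap2b was among the widest of all genes. The SD of its log2 CPM was 3.18, and 99.7% of the genes tested had a smaller one, the median being 0.630. For tfap2c, tfap2a and tfap2e the SDs were 1.51, 1.203 and 0.84, larger than in 92.2%, 84.5% and 67.2% of genes. For pax3a the SD was 0.60 in sox10 tumours, near the median. In mitfa tumours the SD of pax3a was 0.26, and only 3.79% of genes had a smaller one.

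The makeup of the tfap2 transcripts followed these levels. Reads of the 4 tfap2 genes summed to 3.45 to 117 CPM in sox10 tumours with a median of 13.02 CPM, and to 335 to 1277 CPM in mitfa tumours with a median of 852 CPM. Of these reads tfap2b held 45.7% ± 35.0 (SD, n = 12) in sox10 tumours and 0.0519% ± 0.0802 (SD, n = 6) in mitfa tumours. It held more than 50% in 6 of the 12 sox10 tumours (5 of 11 with tumours 9 and 10 joined), up to 95.6% in tumour 1, and as little as 0.962% in tumour 3. The family gene tfap2d is not part of these sums. In sox10 tumour 4 tfap2b held 118 of 226 reads, and counting 23 reads of tfap2d would bring the share of tfap2b under 50%. Sox10 tumour 7 had 56 reads of tfap2d beside 65 of tfap2b. The share of tfap2e was 8.40% ± 9.24 in sox10 tumours and 32.2% ± 10.2 in mitfa tumours. That of tfap2a was 24.4% ± 18.1 in sox10 tumours and 41.0% ± 18.8 in mitfa tumours, and that of tfap2c 21.6% ± 20.6 in sox10 tumours and 26.7% ± 9.77 in mitfa tumours. These are shares of reads, not corrected for gene length, so they compare tumours and not genes, and the shares were not tested. In sox10 tumours 11, 12 and 2 they rest on only 51, 55 and 100 reads of the 4 genes, against at least 5060 in mitfa tumours.

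**Figure D2:**
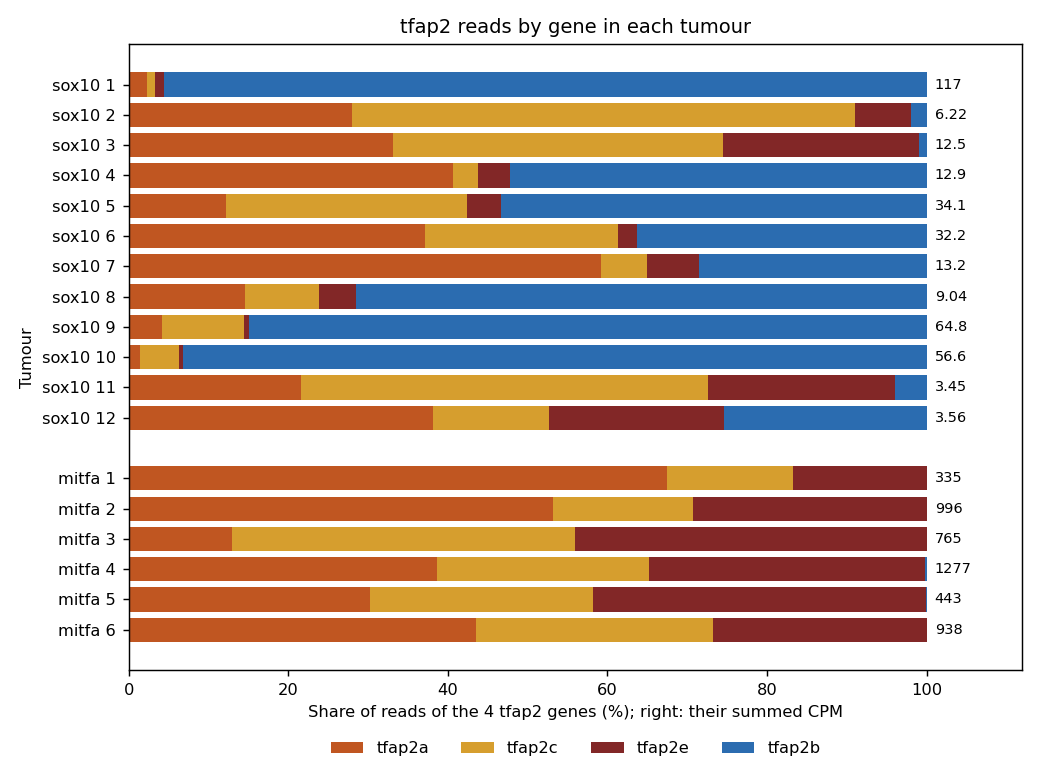
Share of the reads of 4 tfap2 genes (percent, horizontal axis) that each gene held in every tumour, sox10 tumours above mitfa tumours. Numbers at the right give the summed CPM of the 4 genes, which is at most 117 in sox10 tumours and at least 335 in mitfa tumours. The share of tfap2b varies from 0.962% to 95.6% among sox10 tumours and is at most 0.213% in mitfa tumours.

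The paired-box gene pax3a stayed expressed in both groups. Its lowest, median and highest levels were 20.9, 52.4 and 110 CPM in sox10 tumours, against 76.2, 100.7 and 125 CPM in mitfa tumours. The groups overlapped: 10 of the 12 sox10 tumours lay below every mitfa tumour, and tumours 1 and 3, at 110 and 92.6 CPM, lay within their range. Means were 59.6 ± 23.6 CPM (SD, n = 12) in sox10 tumours and 103 ± 18.3 CPM (SD, n = 6) in mitfa tumours, a log2 fold change of -0.80 (SE 0.25, adjusted p = 0.0133 by edgeR). It did not pass when the percentage of reads lying outside annotated genes entered as a covariate, which was 14.3% ± 1.999 in sox10 tumours and 10.8% ± 1.45 in mitfa tumours (log2 fold change -0.52, edgeR adjusted p = 0.237). Without mitfa tumours 1 and 5 it did not pass either (-0.74, edgeR adjusted p = 0.0520), and with the neuron score as a covariate the sign turned (0.43, edgeR adjusted p = 0.556). The neuron score does not overlap between the groups. That last fit can tell score and group apart only by extending the trend within groups beyond the scores seen.

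Its copy pax3b was scarce in nearly all tumours and did not pass the filter. In sox10 tumours it had 0 to 7 reads per tumour, at most 0.368 CPM. Mitfa tumours 1 and 5 had 278 and 103 reads, or 18.4 and 5.28 CPM, and the other 4 mitfa tumours had 0 to 11 reads, or at most 0.637 CPM. No read was found in sox10 tumours 6 and 12 and in mitfa tumour 6, which allows up to 0.176, 0.194 and 0.170 CPM there at 3 reads. With no filter on low counts the log2 fold change was -4.67 (SE 0.94, adjusted p = 0.000634 by edgeR), a value that rests on mitfa tumours 1 and 5. The same tumours 1 and 5 had the lowest epidermis scores of the mitfa group, 1.55 and 1.503, and fibroblast scores of 7.26 and 8.86, where a score is the mean log2 CPM of the listed markers. The other mitfa tumours had fibroblast scores of 3.02 to 6.99. Skeletal muscle scores were 4.13 and 9.29 in tumours 1 and 5 and 0.33 to 6.72 in the other 4, so tumour 1 lay within their range. The part of any of these tissues in the pax3b reads was not tested.

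Since these factors are also used by other tissues, the 5 genes past the filter were set beside marker scores for 6 tissues within the 12 sox10 tumours. Of the 30 relations, 3 passed at an adjusted p under 0.05. The level of tfap2c followed the epidermis score, the mean of 22 markers such as krt5 and epcam. Pearson's r was 0.899 (permutation p = 0.00010, adjusted p = 0.0030, n = 12) and Spearman's rho 0.930 (permutation p = 3.0e-05, adjusted p = 0.00090). Without tumours 4 and 8, which lay farthest from the median score, r was 0.885. With tumours 9 and 10 averaged into 1 sample r was 0.893 (permutation adjusted p = 0.0075, n = 11). For tfap2a the same relation gave an r of 0.357 (permutation adjusted p = 0.524, n = 12) and for tfap2e one of 0.185 (permutation adjusted p = 0.786, n = 12).

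Mitfa tumours with low epidermis scores had more tfap2c than sox10 tumours with high ones. Sox10 tumour 6, with the highest score of its group, 6.03, had 7.80 CPM of tfap2c, and mitfa tumours 1 and 5, with scores of 1.55 and 1.503, had 52.9 and 124 CPM. Within the mitfa group these tumours had the least tfap2c. The other mitfa tumours, with scores of 6.04 to 6.91, had 175 to 339 CPM. By summed CPM the epidermal markers differed less: 3950 in sox10 tumour 6, 3284 in mitfa tumour 1 and 1898 in mitfa tumour 5. A large part of these mitfa sums is 1 marker, icn, which had at least 1108 CPM in every mitfa tumour. In sox10 tumours icn had 138 to 1587 CPM. The part of epidermis in the tfap2c reads was not tested. By edgeR, 9 of 22 epidermal markers fell in sox10 tumours and 0 rose, where 22.4% of all genes tested fell and 21.5% rose. With the epidermis score as a covariate the log2 fold change of tfap2c was -5.56 (edgeR adjusted p = 1.16e-08), that of tfap2a -6.03 (edgeR adjusted p = 6.74e-08) and that of tfap2e -7.66 (edgeR adjusted p = 3.73e-10).

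The levels of tfap2a were split along skeletal muscle transcripts. The muscle scores of sox10 tumours fell into separate clusters, so no correlation over all 12 is given although it was among the 3 that passed. The cut between the clusters was set at the widest gap in score and was not planned. In tumours 3 to 7, with scores of 0.12 to 1.28, tfap2a stood at 4.15 to 11.97 CPM, and in the other 7, with scores of 4.91 to 7.65, at 0.745 to 2.68 CPM. Within those 7 tumours r was 0.0725 (exact permutation p = 0.875, n = 7) and rho -0.0714 (exact permutation p = 0.906). The levels of tfap2b, tfap2c, tfap2e and pax3a overlapped between the clusters. Medians in tumours 3 to 7 and in the other 7 were 5.18 and 1.76 CPM for tfap2c and 0.865 and 0.436 CPM for tfap2e. For tfap2b they were 6.73 and 6.46 CPM, and for pax3a 57.7 and 51.8 CPM. With the muscle score as a covariate the difference between sox10 and mitfa tumours was -7.05 for tfap2a (edgeR adjusted p = 4.00e-09).

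The level of pax3a ran against the neuron score, with an r of -0.771 (permutation p = 0.00244, adjusted p = 0.0244, n = 12) and a rho of -0.650 (permutation p = 0.0246, adjusted p = 0.185). Sox10 tumours 4 and 7, which had the highest neuron scores, 5.29 and 5.57, had the least pax3a, 40.7 and 20.9 CPM. Without them r was -0.427, so the relation rests on those 2 tumours. Of the 10 pairs among the 5 genes, 0 passed within sox10 tumours (smallest permutation adjusted p = 0.741 for r, n = 12), and r ranged from -0.281 for tfap2b with tfap2e to 0.457 for pax3a with tfap2e. Also, tfap2b had no relation that passed. Its r was -0.462 for glia genes, -0.343 for the list of melanophore and target genes and -0.196 for retina genes (permutation adjusted p = 0.341, 0.524 and 0.786, n = 12). The retina score rests on 3 genes only.

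**Figure D3:**
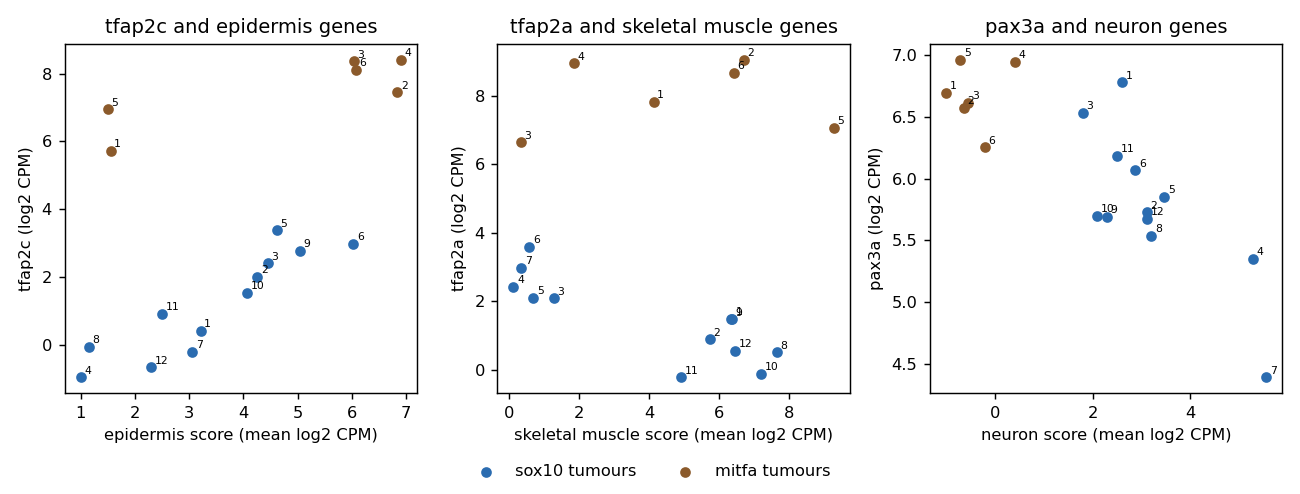
Level of tfap2c, tfap2a and pax3a (log2 CPM, vertical axes) against the epidermis, skeletal muscle and neuron scores (mean log2 CPM of the markers, horizontal axes). Points are tumours with their numbers, sox10 tumours in blue and mitfa tumours in brown. Within sox10 tumours tfap2c rises with the epidermis score (r = 0.899), and all mitfa tumours lie above all sox10 tumours in the panels for tfap2c and tfap2a.

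Of 9 tested genes whose products act on Tfap2 proteins 5 fell in sox10 tumours, 0 rose and 4 were not called, with a median log2 fold change of -0.82. Among all genes tested 22.4% fell and 21.5% rose, with a median of -0.033. With the neuron score as a covariate 2 fell. That score does not overlap between the groups, so the fit extends the trend within groups beyond the scores seen. With the outside-gene percentage 3 fell. KCTD15, whose product binds and inhibits Tfap2a in zebrafish, had at most 4.62 CPM in sox10 tumours and 16.04 to 46.1 CPM in mitfa tumours, without overlap. Its means were 1.07 ± 1.31 CPM (SD, n = 12) in sox10 tumours and 29.4 ± 12.2 CPM (SD, n = 6) in mitfa tumours, a log2 fold change of -4.77 (SE 0.63, adjusted p = 6.56e-06 by edgeR). The related kctd1, which represses TFAP2A in human cells, fell to 2.51 ± 1.55 CPM in sox10 tumours, against 43.8 ± 29.7 CPM in mitfa tumours (log2 fold change -4.12, edgeR adjusted p = 1.08e-06). A copy of CITED4, a coactivator of TFAP2 in mammals, also fell: cited4b had 78.0 ± 31.8 CPM in sox10 tumours and 221 ± 137 CPM in mitfa tumours (log2 fold change -1.501, edgeR adjusted p = 0.00086). That call ended with the outside-gene percentage as a covariate (-1.13, edgeR adjusted p = 0.0669) and with the neuron score (-0.62, edgeR adjusted p = 0.585). Of the genes not called, 2 are named after their values were seen. CITED2, another coactivator of TFAP2 in mammals, had 17.1 ± 14.9 CPM in sox10 tumours and 6.29 ± 4.97 CPM in mitfa tumours (log2 fold change 1.44, edgeR adjusted p = 0.107). WWOX, whose product binds TFAP2 proteins in mammals, was at 0.091 (edgeR adjusted p = 0.768).

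Other regulators of the crest and plate border split in both directions. Of 25 tested 8 were higher, 8 lower and 9 not called, with a median log2 fold change of -0.58. Over all genes tested 21.5% were higher and 22.4% lower, with a median of -0.033. Copies of SOX8 and SOX9, SoxE genes that keep crest cells and glia in their state, led those that rose. SOX8 (ENSDARG00000037782) had 202 ± 102 CPM (SD, n = 12) in sox10 tumours and 1.65 ± 0.755 CPM (SD, n = 6) in mitfa tumours, a log2 fold change of 6.93 (SE 0.51, adjusted p = 4.26e-09 by edgeR). The other SOX8 copy (ENSDARG00000105301), named after its value was seen, was at 1.82 (edgeR adjusted p = 0.157). Both SOX9 copies rose, by 7.33 (ENSDARG00000043923, edgeR adjusted p = 1.20e-09) and 5.63 (ENSDARG00000003293, edgeR adjusted p = 2.36e-06), the second of which was at 6.75 without mitfa tumours 1 and 5. Among the genes that fell, MYCN, a growth-promoting Myc factor, had 5.39 ± 2.03 CPM in sox10 tumours and 418 ± 465 CPM in mitfa tumours, a log2 fold change of -6.27 (SE 0.44, adjusted p = 2.12e-09 by edgeR). Its value was -5.43 without mitfa tumour 3. The Snail repressors snai1a and snai2, which drive crest cells out of the epithelium, fell, with differences of -4.63 and -5.24 on the log2 scale (edgeR adjusted p = 2.71e-10 and 2.20e-10). Without mitfa tumour 6, 5 genes of the list were higher instead of 8, and without mitfa tumours 1 and 5, 5 were higher and 5 lower.

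Of 17 tested genes listed as targets of these factors or genes of the melanophore, 14 fell in sox10 tumours, 0 rose and 3 were not called, with a median log2 fold change of -7.45. The shares over all genes tested were 22.4% lower and 21.5% higher, with a median of -0.033. Pmela, the fibre protein of melanosomes, TYRP1 (ENSDARG00000056151) and TYR, enzymes of melanin synthesis, differed by -9.65, -9.55 and -9.44 on the log2 scale (adjusted p = 4.41e-11, 6.98e-11 and 8.35e-11 by edgeR). The other TYRP1 copy (ENSDARG00000029204), named after its value was seen, fell less, and its groups overlapped. It had 50.8 ± 36.0 CPM in sox10 tumours and 489 ± 554 CPM in mitfa tumours (log2 fold change -3.27, edgeR adjusted p = 0.000273). The 3 genes not called, a MITF copy (ENSDARG00000037833) at 0.71, MET and inka1a, were named after their values were seen, and all 3 had values above 0. The other MITF copy (ENSDARG00000003732), also named after its value was seen, fell without overlap between the groups. It had 3.29 ± 2.95 CPM in sox10 tumours and 174 ± 33.5 CPM in mitfa tumours (log2 fold change -5.73, edgeR adjusted p = 8.21e-08). The gene inka1a, whose Xenopus relative was found as a gene induced by Tfap2a, had 137 ± 59.7 CPM in sox10 tumours and 121 ± 47.0 CPM in mitfa tumours (log2 fold change 0.18, SE 0.32, edgeR adjusted p = 0.676). MET, a receptor gene that Pax3 acts on in mouse muscle precursors, had 13.2 ± 16.6 CPM in sox10 tumours and 3.96 ± 5.31 CPM in mitfa tumours (log2 fold change 1.74, SE 0.86, edgeR adjusted p = 0.109).

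**Figure D4:**
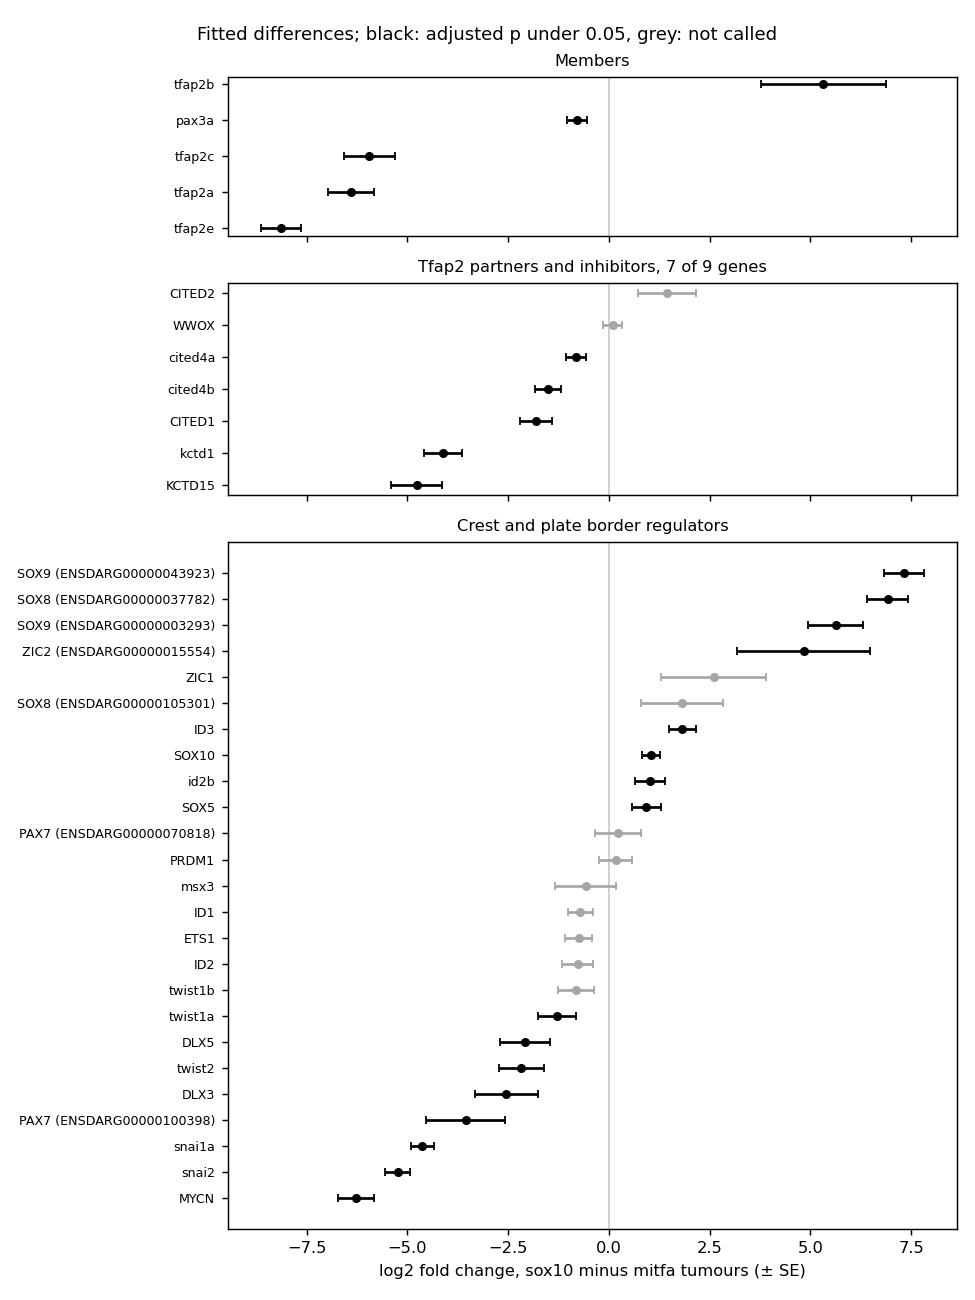
Log2 fold change, sox10 minus mitfa tumours, with its SE (horizontal axis) for the 5 genes past the filter, 7 of the 9 genes acting on Tfap2 proteins (the 5 called, CITED2 and WWOX) and 25 crest and plate border regulators. Black marks an edgeR adjusted p under 0.05 and grey the genes not called. Of the 5 genes, tfap2b alone lies above 0, and the regulators run from -6.27 for MYCN to 7.33 for a SOX9 copy.

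The genes most like each factor over the 18 tumours were sought among 15161 named genes with a mean of at least 2 CPM. Likeness was the root mean squared difference of log2 CPM after each gene was centred on its own mean. Both groups entered together, so a gene with a like difference between the groups comes out close. Likeness within a group was not tested. Closest to tfap2e were MON1B, a vesicle trafficking gene, at 0.71, MC1R, the melanocortin receptor of pigment cells, at 0.75 and trpm1b, a melanophore ion channel, at 0.79. Closest to tfap2a were ALX4 (ENSDARG00000088332), a homeobox gene, at 0.96, BACE2, a protease that cuts the melanosome protein PMEL, at 0.98 and the Tfap2 inhibitor KCTD15 at 1.03. Closest to tfap2c were arhgef33, zgc:163014 and snai2, at 0.84, 1.06 and 1.17. Closest to tfap2b were the kinase gene nim1kb at 1.80, angpt2b at 2.11 and PLXNA2 at 2.15. Closest to pax3a were ARPC2, EXOSC10 and rbm12ba at 0.41, 0.41 and 0.42. These differences are to be read against the spread of each factor around its own mean, which was 3.86 for tfap2e, 3.27 for tfap2a, 3.24 for tfap2c, 3.19 for tfap2b and 0.65 for pax3a.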

How the data were processed

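The authors deposited raw read counts per Ensembl gene for 18 tumour libraries. Per the submitters' processing notes, which give no roles or versions, the tools were FastQC, Trimmomatic, STAR and DESeq2 and the build GRCz10. Which annotation and strand setting served is not given in the sources used here. In all, 4 table entries name no gene; they hold 19.9% to 30.1% of reads per library and were left out. The members and lists were chosen with earlier results of these data known. Names came from a reference table that named 24020 of 27057 genes, and 196 of the 208 list names had a row.

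Genes were kept by edgeR's filterByExpr (count minimum 10, total minimum 15), scaled with TMM factors and tested with the robust quasi-likelihood F test of edgeR 4.0.16 (R 4.3.3), with Benjamini-Hochberg adjustment over all genes tested. The test was checked on simulated counts. The SE of a log2 fold change was derived from its F value. CPM were computed here. Correlations used log2 CPM (prior count 2) and 2-sided permutation tests with 100000 resamples. Intervals and limits from read numbers cover counting error only. Alternatives were DESeq2 1.42.0, limma 3.58.1, other scalings, filters, covariates, a replicate block and tumours left out. Some genes of the lists are not reported here. Named genes were all members, up to 3 called genes with the smallest adjusted p per direction in 3 lists, and the 3 genes most like each member.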

Additional observations from a re-analysis of the deposited data

Results flagged for a closer look

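For 31 genes the 6 mitfa tumours were searched for 1 tumour far from the others, by the gap to the nearest tumour over the whole range (critical value 0.625). Chance alone gives such a tumour in about 1 of 20 genes if values are normally distributed. The values searched were CPM, not log2 CPM, and need not be normal, so the rate here was not established. Among the crest factors pax3b and tfap2b had one. In mitfa tumour 1 pax3b stood at 18.4 CPM, with the others at 0 to 5.28 CPM. In mitfa tumour 4 tfap2b stood at 2.72 CPM, with the others at 0.0547 to 0.205 CPM. The same tumour 4 had the most SOX9 (ENSDARG00000043923) at 18.2 CPM, against 4.07 to 6.36 CPM in the others, and the most nim1kb at 0.347 CPM, against 0 to 0.109 CPM. Since nim1kb was picked for its likeness to tfap2b over these same tumours, its peak there is not a separate observation. One read is worth 0.0579 CPM in that tumour, so the nim1kb value rests on a few reads. In mitfa tumour 3 MYCN reached 1353 CPM, with the others at 157 to 363 CPM. In mitfa tumour 5 snai1a reached 99.5 CPM, with the others at 30.6 to 55.2 CPM.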

How the results depend on the processing

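In all 33 alternatives tfap2a, tfap2c and tfap2e fell and were called, with log2 fold changes of -7.89 to -5.91, -6.51 to -4.49 and -8.50 to -7.66, and tfap2b was higher in all 33. The -7.89 of tfap2a and the -4.49 of tfap2c (edgeR adjusted p = 0.0363) came from the fit with the neuron score as a covariate. With 1 tumour left out the ranges were -6.73 to -6.19 for tfap2a, -6.22 to -5.77 for tfap2c, -8.50 to -7.92 for tfap2e, 4.67 to 7.51 for tfap2b and -0.91 to -0.71 for pax3a, each still called. The call of tfap2b was lost in limma with quality weights (4.43, adjusted p = 0.235, so 0 genes higher) and with the neuron score as a covariate (6.72, adjusted p = 0.108, again 0). The neuron scores do not overlap between the groups. Fits with that covariate can tell score and group apart only by extending the trend within groups beyond the scores seen. That covariate also turned pax3a to 0.43 (adjusted p = 0.556). The pax3a call was further lost at -0.52 with the percentage of reads outside genes and at -0.74 without mitfa tumours 1 and 5.

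Same-numbered tumours correlated at -0.31 to 0.17 in their deviations from the group means, and differently numbered ones at -0.33 to 0.27. Whether the numbers mark a pairing or a shared batch was not tested. With the replicate block, on tumours 1 to 6 of both groups, pax3a was at -0.61 (adjusted p = 0.138), and with the same 12 tumours and no block, a setting chosen after seeing the data, at -0.56 (adjusted p = 0.0970). Over all genes 4024 were higher and 4190 lower, but 2648 and 2103 with the block, 2432 and 2489 with that percentage, and 1085 and 1106 with the neuron score. Crest and plate border regulators, 8 higher and 8 lower, gave 4 and 5 with the neuron score, 5 higher with that percentage, and 5 and 5 without mitfa tumours 1 and 5. They gave 5 lower in limma, 3 lower with a filter of 5 CPM in 6 tumours, and 3 lower with and 4 lower without the replicate block in those 12 tumours. With 1 tumour left out 5 to 8 were higher and 6 to 9 lower. Tfap2 partners gave 1 higher in DESeq2 and in those 12 tumours with no replicate block, and 2 and 3 lower with the neuron score and that percentage. The list of melanophore and target genes gave 1 higher in DESeq2 and 0 to 1 with 1 tumour left out, the 1 without mitfa tumour 4. The cause of these changes was not tested. The r of pax3a with tfap2b was 0.002 and turned to -0.026 with a prior count of 0.5. Shares of reads per kilobase were not run, because no transcript lengths of the build were used here. One read is worth 0.0488 to 0.0681 CPM, so tfap2b in mitfa tumours and pax3b in sox10 tumours rest on a few reads.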

Other observations

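The remaining family gene, tfap2d (ENSDARG00000023272), did not pass the filter but went the way of tfap2b. It had 1 to 56 reads per tumour in sox10 tumours, 0.0643 to 3.23 CPM, and 0 to 2 reads in mitfa tumours, at most 0.116 CPM, with 11 of 12 sox10 tumours above every mitfa tumour. With no filter on low counts its log2 fold change was 3.75 ± 0.94 (SE, edgeR adjusted p = 0.00417). In the order of genes of the RefSeq assembly GRCz12tu, tfap2d is the next protein-coding gene after tfap2b. The tumours with most tfap2d were sox10 tumours 7, 9 and 4, at 3.23, 1.43 and 1.31 CPM, where tfap2b stood at 3.75, 55.0 and 6.73 CPM. Sox10 tumour 1, the highest in tfap2b at 112 CPM, had 0.195 CPM of tfap2d.

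Genes next to those that fell were also looked at. On either side of tfap2e, ncdn, which encodes a neuronal protein, had 26.7 ± 7.71 CPM (SD, n = 12) in sox10 tumours and 29.3 ± 5.79 CPM (SD, n = 6) in mitfa tumours (log2 fold change -0.14, edgeR adjusted p = 0.596), and psmb2, a proteasome subunit, had 146 ± 34.8 CPM in sox10 tumours and 258 ± 87.0 CPM in mitfa tumours (-0.82, edgeR adjusted p = 0.00316). Beside tfap2a, the kinase gene mak had 43.6 ± 5.44 CPM in sox10 tumours and 56.3 ± 12.5 CPM in mitfa tumours (-0.37, edgeR adjusted p = 0.0436), and beside tfap2c, gcnt7 had 0.906 ± 0.366 CPM in sox10 tumours and 1.45 ± 0.789 CPM in mitfa tumours (-0.67, edgeR adjusted p = 0.154). These neighbours were chosen by position, after the values of the factors had been seen.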
